A study of Mus musculus with 46 samples.

Results

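The genes described here are 9 lipid droplet genes, chosen by symbol: the droplet coat genes Plin2, Plin4 and Plin5, the droplet fusion genes Cidea, Cideb and Cidec, the triglyceride lipase Pnpla2 with its inhibitor G0s2, and the nuclear receptor Pparg. They are 9 of the 55487 genes in the deposited tables. All 9 were present. After the filter on low counts, 7 were tested in the Tfam islets (not Plin5 or Cideb), 7 in the Clec16a islets (not Plin4 or Plin5) and all 9 in the livers.

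Cells store triglycerides and sterol esters in droplets wrapped in a single layer of phospholipid, and perilipins (the Plin family) coat that layer and control which enzymes reach the lipid. CIDE proteins sit where droplets touch and let lipid pass from one to another so that droplets grow. Pnpla2, also known as adipose triglyceride lipase, takes the first fatty acid off a stored triglyceride, G0s2 binds and inhibits it, and Pparg switches on many lipid storage genes. Beta cells hold few droplets, whereas hepatocytes fill with them when lipid supply exceeds export and oxidation.

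The study measured RNA by sequencing in 46 mouse libraries, in 3 experiments. In the first, islets came from females labelled Tfam control (n = 5) or Tfam KO (n = 4) and from males labelled Tfam control (n = 3) or Tfam KO (n = 2); Tfam encodes the factor that packages and transcribes mitochondrial DNA. In the second, islets were labelled Clec control or Clec KO on 2 diets written as RFD (4 control, 4 KO) and HFD (6 control, 5 KO), abbreviations that the labels do not write out; Clec16a is a regulator of mitophagy, the clearance of damaged mitochondria. The third compared livers labelled control (n = 6), Mfn DKO (n = 4) and Tfam KO (n = 3); Mfn1 and Mfn2 are the mitofusins that join mitochondria. All liver library names, controls included, carry the term AAV, an adeno-associated virus vector. Islets spent a night in culture before lysis, and livers were snap-frozen. Males and females were both used according to the design text, but only the Tfam islets carry a sex label. The labels used here give no Cre driver, age, strain or pooling of animals. The replicates are labelled biological, and the p-values measure the spread between these libraries. In bulk tissue, fewer cells of a type and less RNA per cell cannot be told apart.

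Libraries held 55223041 to 83342809 counts (Tfam islets), 16235173 to 55810879 (Clec16a islets) or 41961114 to 56894510 (livers). Tfam itself fell from 40.1 ± 2.69 to 17.4 ± 1.22 CPM in female islets, from 39.1 ± 1.28 to 16.9 ± 1.077 in male islets and from 58.8 ± 4.08 to 14.7 ± 1.38 in livers (mean ± SD). Liver Mfn1 fell from 80.7 to 20.2 CPM and Mfn2 from 157 to 38.1 CPM. Clec16a was not lower in the libraries labelled Clec KO (26.5 ± 3.09 against 24.3 ± 3.61 CPM on RFD and 28.1 ± 3.26 against 26.6 ± 3.51 on HFD), so its count does not check those labels, and directions below rest on the label alone. All 8 beta cell markers were above 1 CPM in every islet library and all 8 hepatocyte markers in every liver library. Some libraries stood apart. In 4 Clec16a islet libraries (control HFD replicates 1, 2 and 5 and KO RFD replicate 1) the summed level of 8 intestinal genes, a list chosen after seeing the data, was 77.5 to 326 CPM, against 0.0510 to 2.005 CPM in the other 15. Tfam KO liver replicate 2 had a median correlation of 0.895 with the other 12 livers, against 0.954 to 0.982 for each of those, and its Alb level was 17773 CPM against 43062 to 103625 CPM in the others. The islet library labelled KO HFD replicate 4 had control-like levels of several genes that separated the other KO libraries from controls, given with G0s2 below, and its label could not be checked. Member calls and the named genes of the surrounding lists are given with and without these libraries where that changes a call, and correlations with and without the liver.

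In control tissue the 9 genes were unequally abundant. Levels between genes are compared here on the authors' TPM scale, which divides by gene length, as the median and range of the control libraries. In livers, G0s2 (252 TPM, 58.3 to 406) and Plin2 (221 TPM, 200.3 to 249) led, and their ranges overlapped. Cideb (71.2 TPM, 59.4 to 75.2), Pnpla2 (53.9 TPM, 44.3 to 65.3) and Plin5 (45.9 TPM, 37.0 to 65.5) came next, each overlapping its neighbour. Pparg (10.7 TPM), Cidec (4.14 TPM) and Plin4 (2.49 TPM) were lower, and Cidea lay at 0.133 TPM (0 to 0.363). The order was different in islets, where the lipase Pnpla2 led with 27.9 TPM (23.2 to 29.8) in Tfam controls and 38.9 TPM (32.1 to 47.1) in Clec16a controls. Plin2 followed at 8.71 TPM (6.70 to 16.0) and 13.1 TPM (9.32 to 15.0), below every Pnpla2 value of its experiment. Pparg came after it in both, at 4.25 TPM (2.95 to 6.23) and 5.99 TPM (4.32 to 9.34). G0s2 (1.72 and 2.19 TPM) and Cidea (1.47 and 1.25 TPM) overlapped in both experiments. Cidec, Cideb, Plin4 and Plin5 had medians between 0 and 0.265 TPM in the control islets. Cidea was the only one of the 9 with a higher median in both sets of islets than in livers. Islets and livers were separate experiments, so tissue and experiment cannot be told apart and no test was made between them.

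**Figure D1:**
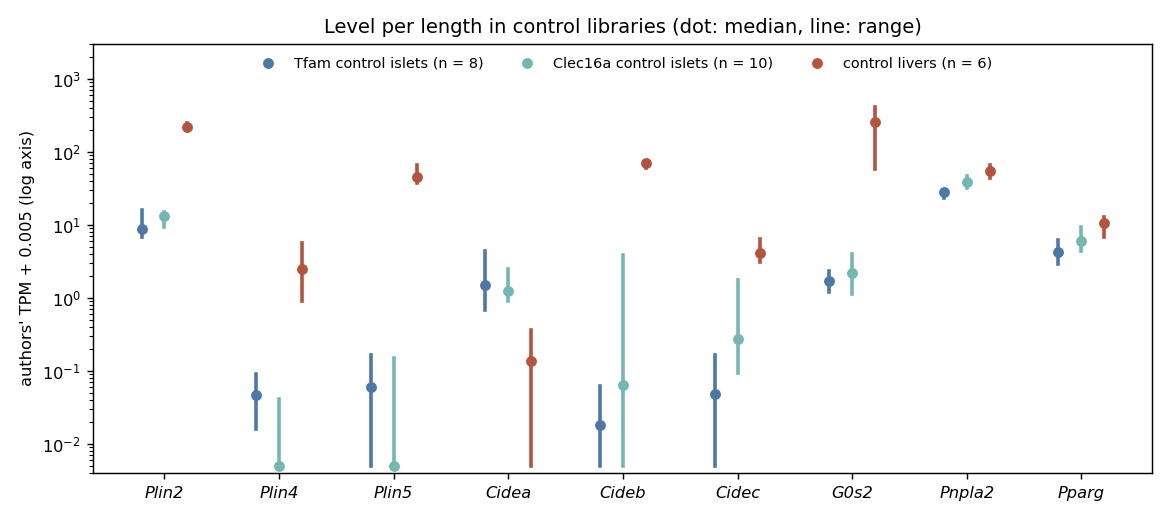
Authors' TPM, with 0.005 added, on a log axis for the 9 genes in Tfam control islets (n = 8), Clec16a control islets (n = 10) and control livers (n = 6); dots are medians and lines run from the lowest to the highest library. The 4 genes Plin4, Plin5, Cideb and Cidec are near the bottom of the axis in islets, and Cidea is the only gene whose liver median is the lowest of the 3.

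Between groups, levels are given as CPM on TMM-scaled library sizes, and a gene is called where its adjusted p is 0.05 or less in edgeR's quasi-likelihood test with Benjamini-Hochberg adjustment over all genes tested. In the Tfam islets with both sexes, 3 of the 7 members tested were called, all higher in KO: Pparg, G0s2 and Plin2. In that comparison 20.9% of the 19752 genes tested were called, and 11.6% of those tested were called higher. The median log2 fold change was 0.72 over the 7 members and -0.0092 over all genes tested. The 250 bases before the RefSeq start (GRCm38.p6) of these 3 genes, which rose in the same islets, are printed 5′ to 3′ on the gene's strand, with the letters AGGTCA, the core site of nuclear receptors, or their reverse complement TGACCT in capitals. The Pparg window is chr6:115360894-115361143 (+ strand, the first of 3 starts in the table), that of Plin2 is chr4:86670060-86670309 (- strand) and that of G0s2 is chr1:193273189-193273438 (- strand).
Pparg: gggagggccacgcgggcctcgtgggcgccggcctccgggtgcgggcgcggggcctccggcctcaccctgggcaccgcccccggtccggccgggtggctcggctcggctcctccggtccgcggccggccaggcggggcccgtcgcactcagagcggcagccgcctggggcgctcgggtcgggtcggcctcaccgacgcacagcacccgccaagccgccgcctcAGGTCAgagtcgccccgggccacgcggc
Plin2: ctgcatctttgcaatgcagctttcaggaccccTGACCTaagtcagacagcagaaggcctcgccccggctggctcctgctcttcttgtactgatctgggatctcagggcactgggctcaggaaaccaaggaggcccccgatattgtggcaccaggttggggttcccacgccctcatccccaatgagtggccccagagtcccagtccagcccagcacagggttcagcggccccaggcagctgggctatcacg
G0s2: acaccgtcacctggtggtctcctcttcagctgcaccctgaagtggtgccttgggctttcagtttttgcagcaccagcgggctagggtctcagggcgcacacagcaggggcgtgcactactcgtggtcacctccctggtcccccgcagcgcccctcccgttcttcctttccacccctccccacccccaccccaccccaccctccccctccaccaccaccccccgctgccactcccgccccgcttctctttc
The match begins 28 bases before the start in Pparg and 218 bases before it in Plin2, and G0s2 holds none. Over the windows of 300 bases (250 before to 50 after a start, both strands), 16.3% of 32851 RefSeq windows hold AGGTCA, and 5 of the 12 windows found for 8 of the members do, those of Plin2, Plin5 and Pparg. No member window holds AGGTCANAGGTCA, the spaced repeat of the PPAR and RXR pair (0.0396% of all windows), or TGATGNAA (3.97% of all windows). A match is a description of letters, not a binding site.

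Pparg (ENSMUSG00000000440, chr6:115360951-115490399, + strand) had the largest change of the called members with both sexes. The 5 control females had 5.34, 4.92, 5.45, 5.20 and 5.76 CPM and the 4 KO females 17.1, 15.3, 16.3 and 17.0 CPM. The 3 control males had 8.20, 8.60 and 7.40 CPM and the 2 KO males 17.9 and 19.8 CPM. All 6 KO libraries were above all 8 controls, and among controls all 3 males were above all 5 females. The log2 fold change was 1.48 (SE 0.080, 2.79-fold, edgeR adjusted p = 2.24e-09) with both sexes, 1.62 (SE 0.084, adjusted p = 6.59e-09) in females and 1.22 (SE 0.11, adjusted p = 5.38e-06) in males. The difference of the male and female changes was -0.40 (SE 0.14, 95% interval -0.67 to -0.12, unadjusted p = 0.0130, edgeR adjusted p = 0.691), so a difference between the sexes did not pass the test.

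G0s2 (ENSMUSG00000009633, chr1:193272161-193273217, - strand) encodes a short protein that binds the lipase Pnpla2 and blocks it. Control females had 0.866, 0.745, 0.490, 0.661 and 0.656 CPM and KO females 2.02, 1.304, 1.37 and 1.58 CPM. Control males had 0.644, 0.728 and 0.786 CPM and KO males 1.73 and 1.962 CPM. The groups did not overlap in either sex, at a low level in both genotypes: 26 to 56 reads per control library and 84 to 152 per KO library. With 2 KO and 3 control males, Plin2, Cidea, Cidec and Pnpla2 did not overlap in males either and were not called there. Separation of so few libraries does not by itself mark a change. G0s2 rose 2.38-fold (log2 1.25, SE 0.16, edgeR adjusted p = 3.63e-05), with log2 changes of 1.19 (SE 0.20, adjusted p = 0.00134) in females and 1.35 (SE 0.27, adjusted p = 0.00532) in males. Of the 5 fits that left out 1 male library, 4 kept the male call. The call was lost without KO male replicate 2, a fit that left 1 KO male and gave a log2 change of 1.26. The gene lies within the span of Lamb3 on the other strand and shares no exonic base with it.

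Its target Pnpla2 (ENSMUSG00000025509, chr7:141455198-141460743, + strand) stayed within a narrow range. Control females had 36.3 to 41.9 CPM, control males 38.2 to 40.1, KO females 36.0 to 43.3 and KO males 37.3 to 38.1 CPM. The females overlapped, both KO males lay just below the lowest control male, and with both sexes the log2 fold change was -0.0063 (SE 0.056, 95% interval -0.12 to 0.10, edgeR adjusted p = 0.959).

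Plin2 (ENSMUSG00000028494, chr4:86648386-86670060, - strand), the perilipin found on droplets of most cells, rose by a smaller and less even amount. Control females had 24.3, 23.3, 15.2, 15.9 and 12.1 CPM and KO females 43.1, 21.0, 19.1 and 19.4 CPM. Control males had 18.3, 11.1 and 13.4 CPM and KO males 38.7 and 22.9 CPM. The females overlapped, with 3 of the 4 KO females below the 2 highest controls, and the males did not overlap. With both sexes Plin2 was 1.64-fold higher (log2 0.72, SE 0.22, 95% interval 0.28 to 1.16, edgeR adjusted p = 0.0323). The change did not pass in females alone (0.50, SE 0.27, adjusted p = 0.284) or in males alone (1.11, SE 0.37, adjusted p = 0.0745), and the difference between the sexes was 0.61 (SE 0.46, adjusted p = 0.923). Of the 14 fits that left out 1 library, 9 kept the call. It was lost without KO female replicate 1 (0.52, adjusted p = 0.112), KO male replicate 1 (0.54, 0.109), control female replicate 5 (0.66, 0.0578), control male replicate 2 (0.64, 0.0644) and control male replicate 3 (0.67, 0.0626).

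**Figure D2:**
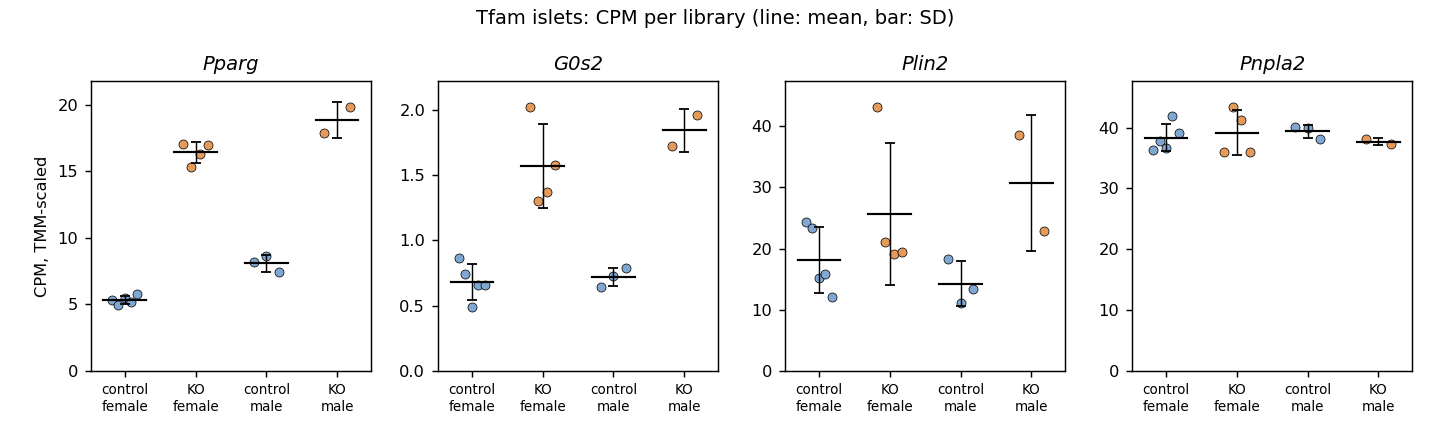
CPM of Pparg, G0s2, Plin2 and Pnpla2 per library in Tfam control and KO islets by sex; points are libraries, lines the group means and bars the SD, and each axis starts at 0. Pparg and G0s2 in KO lie above every control, Plin2 overlaps in females, and Pnpla2 stays between 36.0 and 43.3 CPM in all 14 libraries.

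The other members were low in these islets and none was called. Cidea, the fusion protein best known from brown fat, ranged from 0.335 to 2.24 CPM in controls and from 0.338 to 1.078 CPM in KO (log2 -0.20, SE 0.35, edgeR adjusted p = 0.744). The fitted change had opposite signs in the sexes. Control females had 0.793, 0.728, 2.24, 1.40 and 0.748 CPM and overlapped with KO females at 0.754, 0.721, 1.078 and 0.338 (log2 -0.71, SE 0.38, adjusted p = 0.277), while KO males, at 0.659 and 0.848 CPM, were above the control males at 0.335, 0.566 and 0.477 (0.71, SE 0.52, adjusted p = 0.443). The difference between the sexes was 1.42 (SE 0.64, unadjusted p = 0.0433, edgeR adjusted p = 0.774) and did not pass. Cidec, also called Fsp27 and known from white fat, had 0 to 0.135 CPM in controls and 0.0327 to 0.292 CPM in KO (log2 1.14, SE 0.60, 95% interval -0.036 to 2.32, adjusted p = 0.202). These Cidec values rest on at most 22 reads in a library. Plin4 had 2 to 23 reads per library (log2 -0.31, SE 0.44, adjusted p = 0.689). The 2 members not tested were near 0, Plin5 with 0 to 23 reads per library and Cideb with 0 to 6. By sex, 2 of 7 were called higher in females (Pparg and G0s2, beside 10.8% of genes called, 6.67% higher) and the same 2 in males (8.93% of genes called, 5.24% higher). For the difference between the sexes, edgeR called 0 members and 0 of all genes; 2 members, Cidea and Pparg, had an unadjusted p under 0.05, and DESeq2's Wald test called 0.

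Other lipid storage genes were counted in lists around the 9, to be read beside the 20.9% of all genes called and the 11.6% called higher. The share called was above that of all genes for synthesis, lipolysis and partners of Pparg, close to it for the other coat genes, and below it for fatty acid uptake and Ppara targets; that difference was not tested. Among genes of triglyceride and sterol ester synthesis, 7 of 16 tested rose and 1 fell in Tfam KO islets (median log2 change 0.26). Acsl4, which activates long-chain fatty acids, rose from 50.3 to 85.4 CPM (0.76, adjusted p = 6.67e-06), and Agpat3, an acyltransferase, rose from 123 to 169 CPM (0.46, adjusted p = 6.04e-06). Soat2, which esterifies cholesterol, had at most 2 reads in a control library and 38 to 132 in KO, at least 22.9-fold higher against a floor of 3 counts per library (edgeR adjusted p = 5.52e-08). Among lipolysis genes 4 of 10 were called, all higher (median 0.15), led by Abhd6, a monoglyceride lipase (21.0 to 29.7 CPM, adjusted p = 2.95e-05), and Lipa, the lysosomal acid lipase (11.98 to 18.7 CPM, adjusted p = 0.000640). The other coat genes gave 2 higher and 1 lower of 15 (median 0.056), with the droplet acyl-CoA synthetase Acsl3 rising from 14.5 to 24.9 CPM (adjusted p = 0.000122). Fatty acid uptake genes gave 1 call among 10 (median -0.090), the lipoprotein receptor Vldlr rising from 66.2 to 142 CPM (log2 1.09, adjusted p = 9.21e-09). Partners of Pparg gave 3 higher and 2 lower of 16 (median 0.14). Among them Cebpb, a factor that acts before Pparg in fat cell formation, rose from 11.97 to 37.3 CPM (log2 1.64, adjusted p = 2.03e-08), and Mlxipl, the glucose-responsive factor ChREBP, fell from 226 to 101 CPM (log2 -1.14, adjusted p = 0.000875). Targets of the related receptor Ppara gave 2 calls among 19, both higher (median 0.037), with the hormone gene Fgf21 at 0.827 against 0.0984 CPM (adjusted p = 4.52e-05).

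Marker levels moved beside these changes. Summed beta cell markers were 187075 to 292720 CPM in control females and 250060 to 266746 in control males, against 104426 to 141534 in KO females and 128327 to 129245 in KO males. Summed macrophage markers (10 genes, at least 6 above 1 CPM in each library) were 107 to 117 CPM in control males and 181 to 189 CPM in KO males, and overlapped in females (108 to 195 and 120 to 153). Summed stellate and fibroblast markers (10 genes) were 43.6 to 58.8 CPM in control males and 91.1 to 92.6 in KO males, and overlapped in females (40.5 to 75.6 and 50.4 to 73.4). Summed exocrine markers (10 genes) were 1117 to 10852 CPM in control females, 2405.5 to 7189 in control males and 1703 to 4385 in KO females. KO male replicates 1 and 2 had 19850 and 3936 CPM of these exocrine markers. Their part in the result was not tested. Summed adipocyte markers (9 genes, 2 above 1 CPM) were 12.03 to 22.9 CPM in controls and 11.9 to 17.9 in KO, and Adipoq, the defining adipocyte gene, was at 0 reads in all 8 controls and 5 of 6 KO libraries, with 6 reads in the other.

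In the Clec16a islets G0s2, the lipase inhibitor, was the member called higher in libraries labelled KO. On RFD the 4 libraries labelled control had 1.45, 0.785, 0.440 and 0.656 CPM and the 4 labelled KO had 1.90, 1.69, 1.77 and 2.57 CPM. On HFD the 6 controls ran from 0.808 to 1.78 CPM with a median of 1.06, and the 5 labelled KO had 6.97, 7.59, 2.12, 0.895 and 2.67 CPM. On RFD the groups did not overlap, and on HFD 4 of the 5 KO libraries were above all 6 controls while KO HFD replicate 4 was within the control range. On HFD G0s2 was 3.47-fold higher in KO (4.05 ± 3.03 against 1.16 ± 0.365 CPM, log2 1.80, SE 0.42, edgeR adjusted p = 0.0109). On RFD the change was 1.26 (SE 0.50, 95% interval 0.27 to 2.25, adjusted p = 0.140) and did not pass when the 4 groups shared 1 estimate of the spread; fitting the 2 RFD groups alone gave 1.27 with an adjusted p of 0.0427. Fitting the 2 HFD groups alone kept the call (1.80, adjusted p = 0.0328). Without KO HFD replicate 2 the HFD change was 1.44 and no longer passed (adjusted p = 0.0511). Within sequencing lanes, as given in the deposited file names, the ratio of KO to control was 3.600 in lane 7 and 3.61 in lane 8 on HFD, and 1.86 in lane 7 and 3.09 in lane 8 (1 KO library) on RFD.

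The library labelled KO HFD replicate 4 was also unlike the other libraries labelled KO in Soat2, with 1 read against 54 to 242 in the other 4 KO HFD libraries and 50 to 196 in KO RFD. Without it, a choice made after seeing the data, the HFD change of G0s2 was 2.06 (edgeR adjusted p = 0.000323). Leaving out the KO library with the lowest G0s2 raises that change by construction, so this value adds nothing to the call. In the same fit Cideb was no longer called (adjusted p = 0.0560). Its Cebpb level was 3.50 CPM, within the range of the controls, and so was its summed level of endothelial markers (242 CPM).

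Cideb (ENSMUSG00000022219, chr14:55754050-55758458, - strand), a fusion protein of liver and small intestine that helps to load lipid onto lipoproteins, was the other member called on HFD, and it followed the libraries with intestinal transcripts. Control HFD replicates 1, 2 and 5 had 1.01, 2.85 and 2.36 CPM and KO RFD replicate 1 had 2.57 CPM. The other 15 libraries had 0 to 0.163 CPM. All 4 high libraries were those with intestinal transcripts, 8 of 8 intestinal genes being above 1 CPM in each. KO HFD libraries had at most 3 reads, which puts Cideb at least 8.03-fold lower than in HFD controls (floor of 3 counts per library, edgeR adjusted p = 0.0431). On RFD, where the controls had at most 2 reads, KO was at least 7.33-fold higher and not called (adjusted p = 0.156). Without those 4 libraries Cideb had too few reads to be tested, G0s2 changed by 1.81 on HFD (adjusted p = 0.121) and by 1.28 on RFD (adjusted p = 0.210), and edgeR called 0 of the 6 members tested on HFD, where the share of all genes called was 1.21% against 9.57% with all libraries. There 1 member had an unadjusted p under 0.05. Cideb also had too few reads to be tested when the 2 HFD groups were fitted alone.

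Counting the 7 tested members, edgeR called 2 on HFD, 1 higher and 1 lower, beside 9.57% of 17254 genes (5.62% higher, 3.95% lower). On RFD it called 0, beside 7.52% of genes; Cideb and G0s2 had an unadjusted p under 0.05 and DESeq2's Wald test called 0. The median member log2 change was -0.14 on HFD and 0.17 on RFD, with medians of -0.0019 and -0.0016 over all genes. Between the diets edgeR called 0 members in controls (0.0406% of genes called) and 0 in KO (0.0116% of genes called). In each, 2 members had an unadjusted p under 0.05 (Plin2 and Cideb in controls, Cideb and G0s2 in KO) and DESeq2's Wald test called 0. For the difference of the KO effect between diets edgeR called 0 members and 0 of all genes, 1 member (Cideb) was under 0.05 before adjustment, and DESeq2 called 0. So the G0s2 change is not shown to differ between the diets.

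The remaining members overlapped between genotypes. Plin2 had 16.0, 24.6, 17.0 and 18.6 CPM in RFD controls and 19.5, 19.4, 24.2 and 22.4 in RFD KO (log2 0.17, SE 0.14, edgeR adjusted p = 0.542). On HFD it had 21.3 to 26.6 CPM in controls (median 23.5) and 30.1, 24.8, 19.1, 22.7 and 29.9 CPM in KO (log2 0.10, SE 0.12, adjusted p = 0.688). Unlike G0s2, Plin2 thus kept within 16.0 to 30.1 CPM in all 19 libraries. Pparg was at 6.26 to 12.2 CPM in all of them, with log2 changes of 0.18 (SE 0.17, adjusted p = 0.595) on RFD and -0.14 (SE 0.15, adjusted p = 0.651) on HFD. Pnpla2 was at 44.7 to 73.5 CPM, with changes of -0.047 (SE 0.15) and -0.11 (SE 0.13), neither called. Cidea stayed between 0.421 and 1.43 CPM. Cidec reached 1.60 and 1.36 CPM in control HFD replicates 2 and 5, which are among the libraries with intestinal transcripts, and was at 0 to 0.615 CPM in the others. Plin4 and Plin5 had at most 4 reads in any library.

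**Figure D3:**
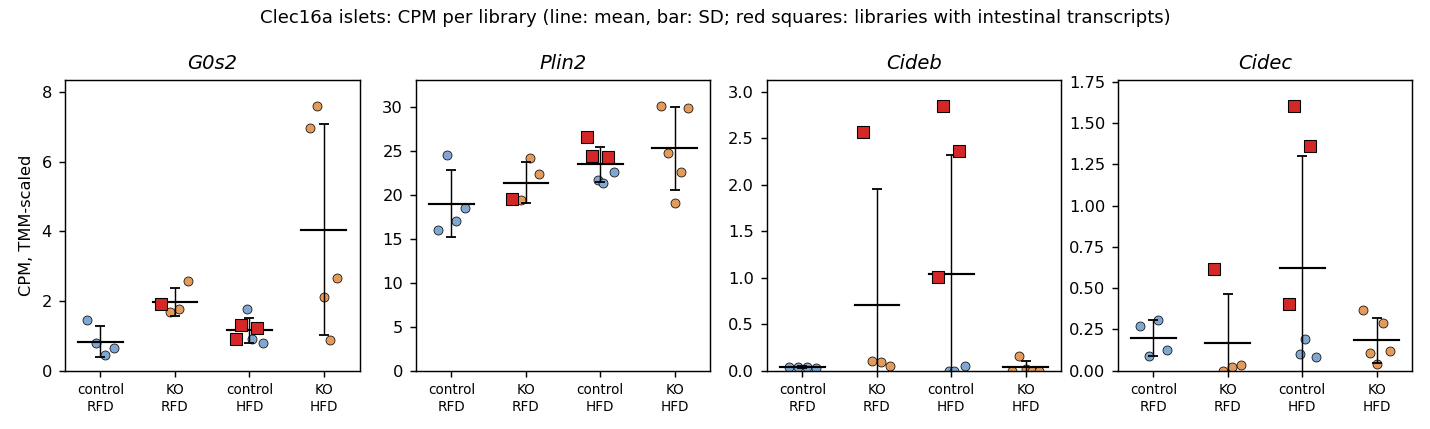
CPM of G0s2, Plin2, Cideb and Cidec per library in Clec16a islets by genotype label and diet; points are libraries, lines the group means and bars the SD, and red squares mark the 4 libraries with intestinal transcripts. G0s2 is higher in 8 of the 9 KO libraries than in every control of the same diet, and all Cideb values above 0.163 CPM are red squares.

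The surrounding lists are to be read beside the 7.52% of all genes called on RFD and 9.57% on HFD. Soat2 rose on RFD from 0.0224 ± 0.0448 to 3.52 ± 1.14 CPM (adjusted p = 0.00638) and on HFD from 0.512 to 3.59 CPM (adjusted p = 0.0337). Cebpb rose (log2 1.58, adjusted p = 0.00385 on RFD and 0.98, adjusted p = 0.0136 on HFD) and Mlxipl fell (-1.10, adjusted p = 0.00643 and -0.95, adjusted p = 0.00386) on both diets. In all, the synthesis list gave 1 higher and 1 lower of 17 on RFD and 1 higher and 3 lower on HFD. Lipolysis gave 1 call among 10 on RFD and 2 on HFD, all higher, with Mgll, the monoglyceride lipase, called on both diets (0.80 and 0.78). The other coat genes, 16 tested, gave 1 call, on HFD (Acsl3, 0.42, adjusted p = 0.0227). Fatty acid uptake gave 1 higher of 12 on each diet, the fatty acid binding protein Fabp3 (1.22 and 1.04), and 2 lower on HFD, Fabp1 and Fabp2, which the intestine expresses. Partners of Pparg gave 3 higher and 1 lower of 16 on RFD and 1 higher and 2 lower on HFD, and Ppara targets 1 higher and 3 lower of 19 on RFD and 1 and 1 on HFD. With lists this short, 1 or 2 calls are near those shares. Without the 4 libraries with intestinal transcripts the named calls on RFD held, with adjusted p-values of 0.00918 (Soat2), 0.0137 (Cebpb), 0.0220 (Mlxipl), 0.0495 (Mgll) and 0.0494 (Fabp3). In that fit 5.38% of all genes were called on RFD. Ppara targets then gave 0 higher and 0 lower of 19, and partners of Pparg 1 higher and 1 lower of 15. The other lists kept their numbers of calls on RFD. For HFD the same fit called 1.21% of all genes. There synthesis gave 1 higher and 0 lower of 16, and Ppara targets 1 higher and 0 lower of 19. Lipolysis, the other coat genes, fatty acid uptake and partners of Pparg gave 0 higher and 0 lower. On HFD Soat2 held (adjusted p = 0.0337), and Cebpb (1.07, 0.0935), Mlxipl (-0.93, 0.0621), Mgll (0.83, 0.0790), Fabp3 (0.82, 0.203) and Acsl3 (0.27, 0.230) did not pass, while Fabp1 and Fabp2 had too few reads to be tested. Summed endothelial markers (6 genes) were 201 to 266 CPM in the controls of both diets and 315 to 398 CPM in 8 of the 9 KO libraries, above every control, with KO HFD replicate 4 at 242 CPM. Summed stellate and fibroblast markers were 48.6 to 84.8 CPM in controls and 70.9 to 129 CPM in KO. Their part in the result was not tested.

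In livers, Cideb was the member that separated both knockouts from controls. The 6 controls ran from 38.5 to 55.9 CPM with a median of 49.0, the 4 Mfn DKO livers had 29.8, 32.2, 33.0 and 28.4 CPM, and the 3 Tfam KO livers had 19.9, 6.58 and 29.6 CPM. Every knockout liver was below every control. In Tfam KO livers Cideb fell from 48.3 ± 5.59 to 18.7 ± 11.6 CPM (log2 -1.37, SE 0.33, edgeR adjusted p = 0.00914), and without Tfam KO replicate 2 the change was -0.96 (adjusted p = 0.00403). In Mfn DKO livers it was at 30.9 ± 2.13 CPM (log2 -0.65, SE 0.28, 95% interval -1.21 to -0.092, adjusted p = 0.159). That change did not pass when the 3 groups shared 1 estimate of the spread, and fitting control and Mfn DKO alone gave -0.65 with an adjusted p of 0.000697. Leaving Tfam KO replicate 2 out of the shared fit, a choice made after seeing the data, also gave -0.65, with an adjusted p of 0.00385. The 2 knockouts share their controls and were compared directly: Tfam KO against Mfn DKO gave -0.72 (SE 0.34, adjusted p = 0.248). Cideb shares 1136 of its exonic bases (76.3%) with Nop9 on the opposite strand, and whether the counting used strand is not given in the sources used here. Nop9, a ribosome biogenesis gene, was at 21.9 to 30.2 CPM in controls, 21.8 to 27.1 in Mfn DKO and 44.0, 36.1 and 21.6 CPM in Tfam KO livers, and in islets, where Cideb had at most 2.85 CPM, it was at 10.9 to 20.6 CPM.

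The rise of other members in Tfam KO livers rested on 1 liver. Plin2 had 315 to 436 CPM in controls (median 370.4) and 525, 2027 and 342 CPM in Tfam KO replicates 1, 2 and 3. Cidec had 2.47 to 5.74 CPM in controls (median 3.51) and 6.64, 38.1 and 2.06 CPM in Tfam KO. Pnpla2 had 61.9 to 88.6 CPM in controls (median 78.3) and 98.3, 251 and 62.2 CPM in Tfam KO. Replicate 1 was slightly above, replicate 2 far above and replicate 3 within or below the control range for all 3 genes. Against the highest of the other 12 livers, replicate 2 was 3.86 times as high for Plin2, 5.74 times for Cidec and 2.55 times for Pnpla2. In the same liver Cideb was at 33.0% of the lowest other value and G0s2, at 18.6 CPM, at 78.6% of it. With all 3 livers, Plin2 (log2 1.39, SE 0.40, edgeR adjusted p = 0.0223) and Cidec (2.01, SE 0.59, adjusted p = 0.0226) were called, and Pnpla2 was not (0.83, SE 0.30, adjusted p = 0.0539; DESeq2's Wald test gave an adjusted p of 0.0382). Without replicate 2 none of the 3 was called, with log2 changes of 0.25 (adjusted p = 0.488), 0.19 (0.789) and 0.076 (0.823). Fitting control and Tfam KO alone also lost the calls of Plin2 (1.37, adjusted p = 0.0550) and Cidec (1.995, adjusted p = 0.0589) and kept that of Cideb (-1.38, adjusted p = 0.0325); Cidea had too few reads to be tested there. Summed hepatocyte markers (8 genes) were 59786, 24456 and 95108 CPM in Tfam KO replicates 1, 2 and 3, 89360 to 134389 in controls and 78887 to 100593 in Mfn DKO. Their part in the result was not tested.

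Cidea, close to 0 in control livers (0 to 8 reads, 0 to 0.199 CPM) and Mfn DKO livers (0 to 0.193 CPM), had 116, 30 and 6 reads in the Tfam KO livers, or 1.88, 0.392 and 0.134 CPM. Replicates 1 and 2 were above all controls and replicate 3 was within their range. Its log2 change of 3.37 (SE 0.91, edgeR adjusted p = 0.0163) depended on replicate 1, without which it was 1.77 with an adjusted p of 0.199. In that liver 4 of 9 adipocyte markers were above 1 CPM, against 1 of 9 (Fabp4) in every control. It had the brown fat gene Ucp1 at 7.17 CPM (0 to 0.325 in controls), Cfd at 4.11, Plin1 at 1.46 and Adipoq at 0.893 CPM (0 to 0.558 in controls). The summed adipocyte level was 38.9, 31.3 and 10.01 CPM in Tfam KO replicates 1, 2 and 3, 8.17 to 16.3 in controls and 12.8 to 34.5 in Mfn DKO. In Tfam KO replicates 2 and 3 and in every Mfn DKO liver, 1 of the 9 adipocyte genes was above 1 CPM. Of 10 exocrine genes, 1 had 0 reads in Tfam KO replicate 1, against 7 or 8 in every other liver. Its summed exocrine level, 17.7 CPM, was within the 12.1 to 89.3 CPM of controls. Their part in the result was not tested.

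The remaining liver members were not called. Plin5, a perilipin of oxidative tissues that links droplets to mitochondria, had 38.6 to 67.1 CPM in controls (median 44.5), 61.1, 43.1, 43.4 and 78.2 CPM in Mfn DKO (log2 0.23, SE 0.21, edgeR adjusted p = 0.503) and 74.5, 51.3 and 47.9 CPM in Tfam KO (0.27, SE 0.23, adjusted p = 0.395). Plin4, its neighbour on chromosome 17 at a distance of 1797 bases, ranged widely, from 2.64 to 17.3 CPM in controls, 4.68 to 24.6 in Mfn DKO (0.44, SE 0.52, adjusted p = 0.613) and 6.62 to 13.3 in Tfam KO (0.28, SE 0.57, adjusted p = 0.744). All groups overlapped for both. G0s2 had 23.7 to 164 CPM in controls, 91.8 to 152 in Mfn DKO (0.056, SE 0.51, adjusted p = 0.957) and 112, 18.6 and 152 CPM in Tfam KO (-0.14, SE 0.57, adjusted p = 0.873; 0.35 without replicate 2). Pparg had 9.47 to 17.8 CPM in controls, 11.3 to 19.6 in Mfn DKO (0.069, SE 0.19, adjusted p = 0.844) and 15.5, 18.3 and 18.5 CPM in Tfam KO (0.31, SE 0.20, adjusted p = 0.274). The 2 members that rose most clearly in Tfam KO islets, Pparg and G0s2, thus overlapped with controls in Tfam KO livers; the change was not tested between the tissues. In Mfn DKO livers Plin2 (-0.048, SE 0.38, adjusted p = 0.951), Cidec (-0.65, SE 0.58, adjusted p = 0.494), Pnpla2 (0.093, SE 0.28, adjusted p = 0.860) and Cidea (-0.17, SE 1.04, adjusted p = 0.935) also overlapped with controls.

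**Figure D4:**
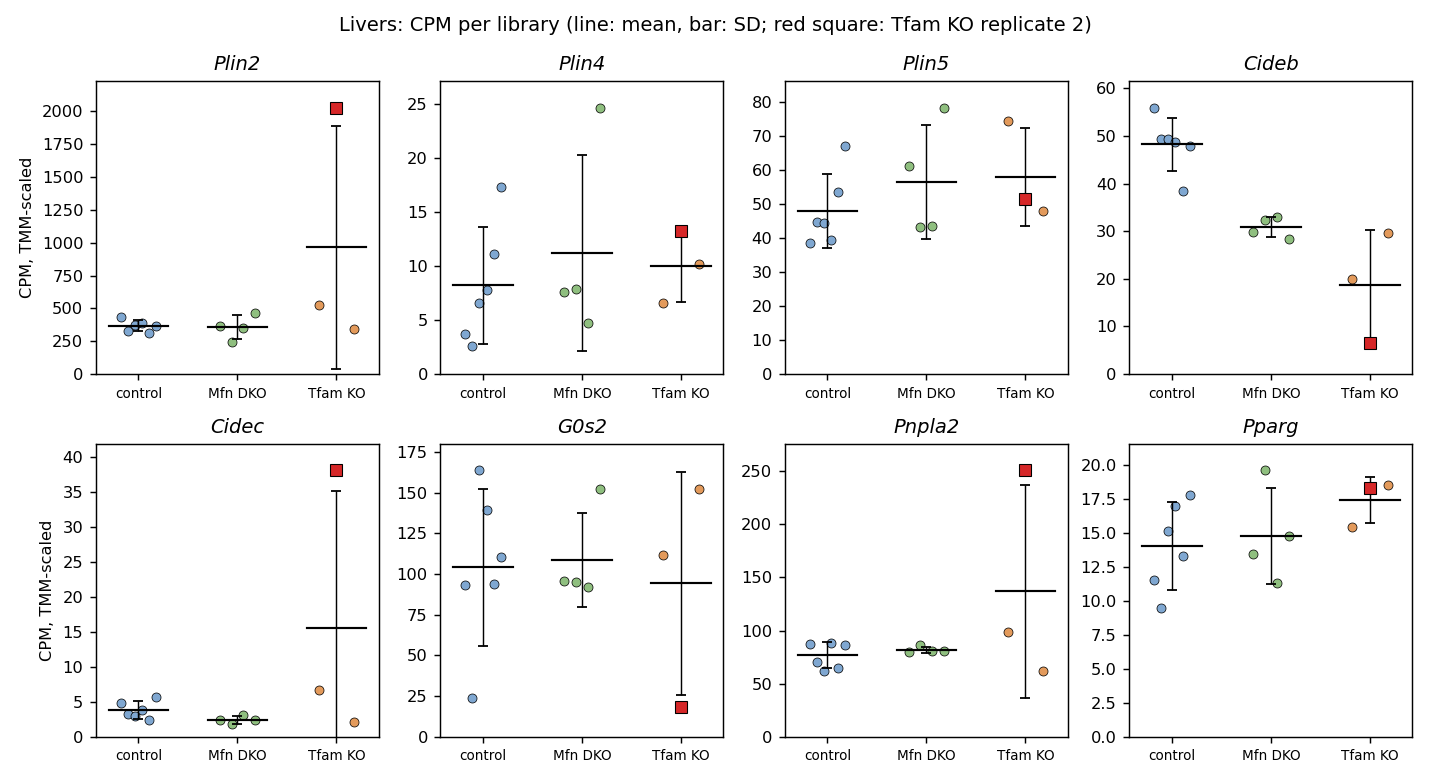
CPM of 8 members per library in control (n = 6), Mfn DKO (n = 4) and Tfam KO (n = 3) livers; points are libraries, lines the group means and bars the SD, and the red square is Tfam KO replicate 2. Cideb is below all controls in all 7 knockout livers, and the high Plin2, Cidec and Pnpla2 means in Tfam KO come with 1 library.

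In Tfam KO livers edgeR called 4 of 9 members, 3 higher (Plin2, Cidea, Cidec) and 1 lower (Cideb), beside 29.3% of 17024 genes (18.1% higher, 11.3% lower). Without replicate 2 it called 2, Cidea and Cideb, and the share of all genes called was 14.5%. With control and Tfam KO fitted alone it called 1 of 8, Cideb, beside 19.6% of genes. In Mfn DKO livers edgeR called 0 of 9, beside 9.87% of genes, and 1, Cideb, beside 19.5% with Tfam KO replicate 2 left out of the fit or beside 27% with control and Mfn DKO fitted alone; with all libraries 1 member (Cideb) had an unadjusted p under 0.05 and DESeq2's Wald test called 0. Between the 2 knockouts edgeR called 0 of 9, beside 0.294% of genes. There 4 members were under 0.05 before adjustment, of which DESeq2 called 2 by its Wald test: Plin2 differed by 1.43 (SE 0.45, edgeR adjusted p = 0.121), Cidea by 3.54 (SE 1.05, adjusted p = 0.110), Cidec by 2.66 (SE 0.68, adjusted p = 0.101) and Pnpla2 by 0.74 (SE 0.33, adjusted p = 0.234). The member changes of the 2 knockouts are thus not shown to differ by edgeR. The median member change was 0.31 in Tfam KO and 0.056 in Mfn DKO livers, with medians of 0.031 and 0.018 over all genes.

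The liver genes around the members are to be read beside the 9.87% of all genes called in Mfn DKO and 29.3% in Tfam KO, which share their controls. With all 3 Tfam KO livers the share called was close to that of all genes for synthesis and partners of Pparg. It was below that share for the other coat genes and above it for lipolysis, fatty acid uptake and Ppara targets. Without Tfam KO replicate 2, 14.5% of all genes were called in Tfam KO. The share was then above that for every list but the other coat genes. These differences were not tested. In the synthesis list, 3 of 18 were called in Mfn DKO, all higher, and 3 rose and 2 fell in Tfam KO. Gpat3, which starts glycerolipid synthesis, was at 9.10 CPM in controls and rose to 49.7 CPM in Mfn DKO (2.44, adjusted p = 0.000625) and to 41.8 CPM in Tfam KO (2.19, adjusted p = 0.000948). Acsl4 rose by 1.59 (adjusted p = 0.0120) and 2.24 (adjusted p = 0.00139). Among lipolysis genes 1 rose and 3 fell of 15 in Mfn DKO, and 2 rose and 4 fell in Tfam KO; lipoprotein lipase, Lpl, was the higher one in Mfn DKO (2.05, adjusted p = 0.0209) and also rose in Tfam KO (2.24, adjusted p = 0.00745), while the monoglyceride lipase Mgll fell in Mfn DKO (-1.17, adjusted p = 0.0252). Abhd5, the activator of Pnpla2, rose in Tfam KO livers from 25.9 to 38.0 CPM (0.55, adjusted p = 0.00925). Fatty acid uptake gave 1 higher and 4 lower of 13 in Mfn DKO and 3 higher and 5 lower in Tfam KO, with Fabp1, the liver fatty acid binding protein, falling by 1.63 and 2.15 on the log2 scale. Of 18 other coat genes, 2 were called in Mfn DKO, both lower (Hsd17b11, -1.01, and Bscl2, which encodes seipin, -0.26). In Tfam KO 1 rose and 2 fell: Hilpda, an inhibitor of Pnpla2, rose from 2.28 ± 0.386 to 11.9 ± 13.6 CPM (2.37, adjusted p = 0.00681) with 4.999, 27.5 and 3.09 CPM in replicates 1, 2 and 3, while Ldah (-0.70) and Fitm1 (-2.88) fell. Partners of Pparg gave 1 call among 16 in Mfn DKO, higher, and 1 higher and 4 lower in Tfam KO. Ppara targets gave 1 higher and 3 lower of 21 in Mfn DKO and 3 higher and 6 lower in Tfam KO, with Fgf21 higher in both (4.82, adjusted p = 0.000640, and 4.13, adjusted p = 0.000996). With all livers, Creb3l3 of the same list was lower in both (-0.74, edgeR adjusted p = 0.00149, and -1.01, edgeR adjusted p = 0.000320). Without Tfam KO replicate 2, Gpat3 (2.40, adjusted p = 0.00143), Acsl4 (1.94, 0.00712), Fabp1 (-1.73, 0.00969) and Fgf21 (4.55, 0.000712) were still called in Tfam KO. Lpl (0.94, 0.121), Hilpda (0.83, 0.131), Abhd5 (0.39, 0.0624), Ldah (-0.58, 0.0789) and Fitm1 (-2.31, 0.0812) were not. In that fit Tfam KO lipolysis gave 0 higher and 6 lower of 15. Synthesis gave 3 higher and 1 lower of 18, and partners of Pparg 1 higher and 3 lower of 16. The other coat genes gave 1 higher and 1 lower of 18, and fatty acid uptake 2 higher and 6 lower of 13. In Mfn DKO, beside 19.5% of all genes called, lipolysis gave 1 higher and 7 lower and Ppara targets 3 higher and 6 lower. The other coat genes there gave 2 higher and 2 lower, fatty acid uptake 1 higher and 6 lower, and partners of Pparg 1 higher and 3 lower.

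**Figure D5:**
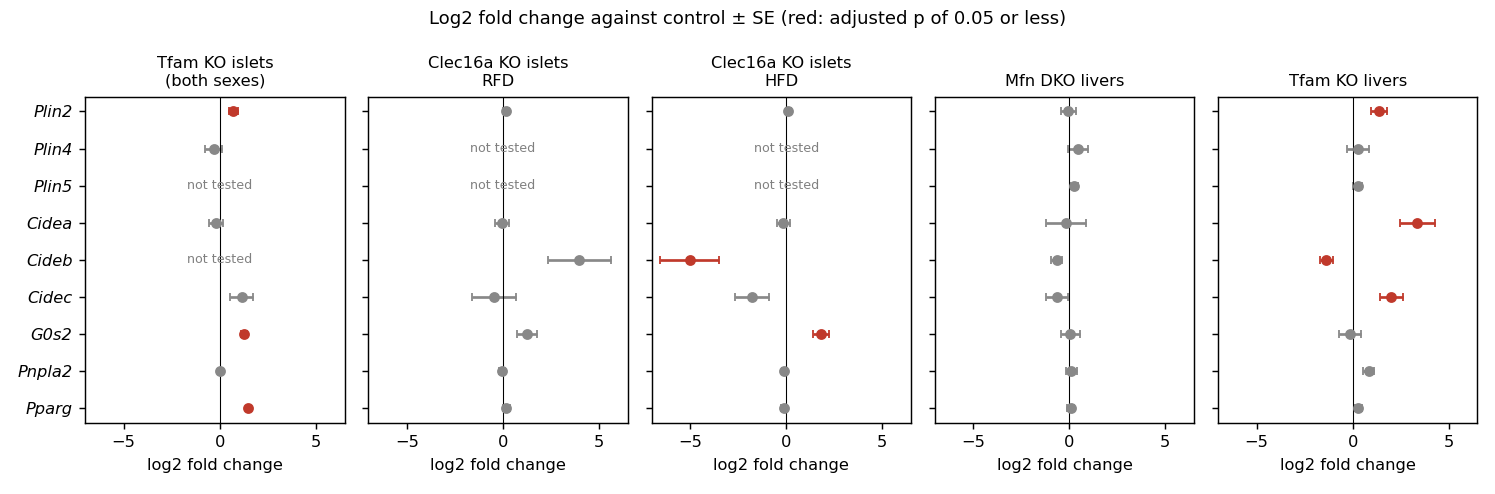
Log2 fold change against control of the 9 members in Tfam KO islets (both sexes), Clec16a KO islets on RFD and on HFD, Mfn DKO livers and Tfam KO livers; points are edgeR estimates, bars the SE, and red marks an adjusted p of 0.05 or less. The red points are Pparg, G0s2 and Plin2 in Tfam KO islets, G0s2 and Cideb in Clec16a KO islets on HFD, and Plin2, Cidea, Cidec and Cideb in Tfam KO livers; the fitted Cideb value in Clec16a islets depends on the prior count.

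Levels in all 46 libraries were taken as log2 CPM, after adding 2 CPM, minus the mean of the library's control group. Members were compared with each other and with the 14503 other genes tested in all 3 experiments. Such libraries share their controls and, in livers, the 1 library that stands apart. The added 2 CPM narrows differences at low levels, as for Cidea, which had at most 2.24 CPM in islets and 1.88 CPM in livers. Among members, Cidec was most like Pnpla2 (Pearson r = 0.834) and Plin2 (r = 0.720), and Plin2 and Pnpla2 had r = 0.591. Without Tfam KO liver replicate 2 these were 0.422, 0.318 and 0.031, so they rest on that library. G0s2 ran the other way from Cidec (r = -0.535) and Pnpla2 (r = -0.500) with that library and not without it (-0.085 and -0.050), and Pparg had r = 0.207 with G0s2 and 0.370 with Plin2 (0.296 and 0.462 without it). The genes most like Pparg were Rasgef1b (r = 0.892) and Gnai2 (0.876), each at 0.876 or more without that library, and those most like G0s2 were Angptl8 (0.784, and 0.786 without it) and Plekhh3 (0.752, and 0.628). Plin2 was most like Fbp2 (0.816, and 0.588 without it) and Tax1bp3 (0.807, and 0.587). Cidec was most like Zfp827 (0.876, and 0.308) and Hkdc1 (0.868, and 0.383), and Pnpla2 most like Add1 (0.891, and 0.667) and Adgrg1 (0.878, and 0.548). For Cidea the nearest were Zfp791 (0.678, and 0.671 without it) and Rpp38 (0.627, and 0.645), the weakest likeness among the 6 members compared with all libraries.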

How the data were processed

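RNA from 46 libraries was sequenced as 151-base read pairs, per the labels' protocols. The authors deposited, per library, gene counts, CPM and TPM, per the file headers; the counts are whole numbers and the CPM columns divide them by the library total. The submitters' processing notes name STAR 2.6.1b, RSEM 1.3.1, featureCounts, DESeq2, FastQC, MultiQC and GRCm38, without their roles. The annotation and the strand setting of the counting are not given in the sources used here.

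The deposited counts were tested with edgeR 4.0.16 in R 4.3.3 (quasi-likelihood F-test, TMM scaling, filterByExpr, Benjamini-Hochberg over all genes tested). Each experiment was fitted whole, in 12 comparisons. The model had 1 mean per labelled group, except for the Tfam islets with both sexes. There genotype and sex were additive terms, so both sexes shared 1 genotype effect. DESeq2 1.42.0 was an alternative. CPM in the text were recomputed from the counts on TMM-scaled library sizes; levels between genes use the authors' TPM. The SE is the log2 fold change divided by the root of the F statistic, and intervals are 1.96 SE. With few libraries this multiplier can give intervals too narrow for the F-test. For Cidec in Tfam KO males the interval was 0.086 to 3.73 with an unadjusted edgeR p of 0.0579. The fits were tested on simulated data. Whether the replicate numbers pair the libraries is not known. Same-numbered libraries of different groups had median correlations of 0.146, -0.029 and 0.093 in the Tfam islets, Clec16a islets and livers. Differently numbered libraries were not set beside them. Of the deposited identifiers, 55141 of 55487 matched GENCODE M21, which gave the gene positions on GRCm38. The members, the gene lists and the tests were chosen with earlier results of these data known. All 9 members are named, plus the targeted genes, the 2 genes most like each member and at most 3 called genes per list with the smallest adjusted p; marker genes and Cebpb and Soat2 in single libraries were added after their values were seen.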

Additional observations from a re-analysis of the deposited data

Results flagged for a closer look

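Within groups of 4 to 6 libraries, 40 sets of a member's levels were searched for a library far from the rest of its group. The measure was that library's gap to its nearest neighbour as a share of the range (Dixon's 95% limit). Not every member was searched in every group. Cideb in KO RFD islets, with a median of 0.0975 CPM and a highest value of 2.57 CPM, was not among the 40. Chance alone marks about 1 in 20 such sets, and 4 of the 40 were marked. Plin2 was at 43.1 CPM in Tfam KO female replicate 1, with the next KO female at 21.0 CPM. Plin4 was at 24.6 CPM in Mfn DKO liver replicate 4, with the next at 7.84 CPM, and the same library had G0s2 at 152.2 CPM, with the next at 95.7 CPM. Pnpla2 was at 86.5 CPM in Mfn DKO liver replicate 2, with the next at 80.8 CPM. The Plin2 library bears on a call, which is lost without it (log2 change 0.52, edgeR adjusted p = 0.112). The 3 liver values bear on no call. The groups of 3 Tfam KO livers and 2 or 3 Tfam islet males were too small for this search.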

How the results depend on the processing

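Settings were changed 1 at a time. Of the values tied to the number of members called, 201 kept it within 1.5 times and 22 did not; for single members, 829 values kept direction and side of the threshold, 24 lost the call, 15 gained it and 23 changed sign. On HFD in the Clec16a islets 2 members were called: 1 with at least 10 counts in every library, 1 with lane as a term, 1 with the replicate block, 1 with only the compared groups fitted, and 0 without the 4 libraries with intestinal transcripts, a setting chosen after seeing the data. Fitting only the compared groups called 1 member on RFD and 1 in Mfn DKO livers (G0s2 and Cideb; 0 in each otherwise) and 1 in Tfam KO livers (Cideb; 4 otherwise). Leaving Tfam KO liver replicate 2 out of the shared fit, also chosen after seeing the data, called 1 member in Mfn DKO livers, Cideb. DESeq2's Wald test called 2 between the 2 liver knockouts (0 otherwise). With the replicate block, 0 members were called in Tfam KO livers, with Plin2 at 1.15 (edgeR adjusted p = 0.205), Cidec at 1.52 (0.258), Cideb at -1.61 (0.0566) and Cidea at 2.85 (0.135); G0s2 on HFD was at 1.49 (0.0675), and Plin2 in Tfam KO males was called (0.92, 0.0133). Whether the replicate numbers pair the libraries is not known, so this setting cannot be weighed against the main fit. Leaving out 1 library at a time, the number called was 2 to 3 in Tfam islets of both sexes, 1 to 2 in males, 0 to 2 on HFD, 2 to 5 in Tfam KO livers and 0 to 5 between the liver knockouts. Changes of sign were in uncalled members: Cidea in Mfn DKO livers with the Xist level as a covariate (0.14), and, leaving out 1 library, Cidea (-0.38 to 0.055) and Pnpla2 (-0.040 to 0.014) in Tfam islets, Pnpla2 on RFD (-0.22 to 0.038), G0s2 (-0.16 to 0.22), Pparg (-0.098 to 0.18), Cidea (-0.46 to 0.33), Plin2 (-0.22 to 0.10) and Plin4 (-0.31 to 0.80) in Mfn DKO livers, G0s2 in Tfam KO livers (-0.68 to 0.35) and Pnpla2 between the liver knockouts (-0.018 to 1.083). The cause was not tested. Depth limits Plin4, Plin5, Cidec and Cideb in islets and Cidea in livers, where counts were near 0.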

Other observations

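Xist split the 13 livers, whose sex is not labelled, into 7 with 377 to 789 CPM and 6 with 0.0848 to 0.698 CPM, and the groups held both kinds: 3 and 3 controls, 2 and 2 Mfn DKO, 2 and 1 Tfam KO livers. Cideb was lower in the knockouts within each kind. Among livers with high Xist it was at 38.5 to 49.2 CPM in controls, 28.4 to 32.2 in Mfn DKO and 6.58 and 29.6 in Tfam KO. Among those with low Xist it was at 47.8 to 55.9 CPM in controls, 29.8 to 33.0 in Mfn DKO and 19.9 in the Tfam KO liver. The Clec16a islets, whose sex is also not labelled, had Xist at 301 to 533 CPM in every library of all groups. In the Tfam islets Xist was at 427 to 930 CPM in labelled females and at 0.0795 to 1.99 CPM in labelled males.

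The perilipins outside the 9 genes behaved differently from each other. Plin1, the perilipin of fat cells, had at most 8 reads in any islet library and at most 14 in a control liver. Plin3, the most widely expressed perilipin, was at 6.18 to 19.4 CPM in islets and at 34.7 to 56.0 CPM in 12 of the 13 livers, with 109 CPM in Tfam KO liver replicate 2, the library that also held the highest Plin2, Cidec and Pnpla2.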
